A study of Mus musculus with 6 samples.

Results

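Cholesterol synthesis, uptake and efflux genes were followed in RNA-seq libraries of mouse liver tumours. The 34 genes were taken by name from the gene symbols in the deposited files, and all 34 were found among 39179 listed genes. They were 18 enzymes of synthesis, 6 regulators and 10 genes of uptake, transfer, efflux and esterification. The tumours were raised in C57BL/6 wild-type mice with hydrodynamic delivery, in which fluid pushed quickly into the tail vein carries plasmids into liver cells. The plasmids held transposons that integrate into chromosomes, and these carried Myc together with NrasG12V (a constitutively active Ras protein) or with Akt1, a kinase of insulin and growth factor signalling. Each group, Myc/NrasG12V and Myc/Akt1, had 3 libraries, and both carried the Myc transposon. Normal liver and tumours with Myc alone were not analysed here, and the age of the mice, the promoters of the transposons and the number of animals behind the samples are not described in the labels. The p-values therefore bear only on the spread between these samples.

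Cells make cholesterol from acetyl-CoA through mevalonate, isoprenoid diphosphates, squalene and lanosterol, and the liver is a main site of this synthesis. When membrane sterol is low, SCAP escorts the transcription factor SREBP2, encoded by Srebf2, from the endoplasmic reticulum to the Golgi, where proteases release its active part. INSIG1 and INSIG2 hold SCAP back when sterol is high. When sterol is plentiful, oxysterols activate the liver X receptors (LXR) Nr1h2 and Nr1h3, which induce efflux pumps. They also induce Mylip, an E3 ubiquitin ligase that limits lipoprotein uptake.

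Promoter windows of 250 bases before the transcription start, from RefSeq on GRCm38.p6, were found for 27 of the 34 genes. They are shown for 3 enzymes that were lower in Myc/NrasG12V tumours (Hmgcs1, Hsd17b7 and Ebp), for Lss, an enzyme that was not, and for Scap, which was higher. The last sequence is the stretch between the opposite starts of the partner genes Abcg5 and Abcg8. Capitals mark, on either strand, the sterol regulatory element TCACNCCAC, the NF-Y motif CCAAT, the E-box CACGTG and the Sp1 motif GGGCGG. Each sequence reads 5′ to 3′ on the strand of its gene, and the last on the plus strand.
Hmgcs1 (chr13:119690101-119690350, plus strand): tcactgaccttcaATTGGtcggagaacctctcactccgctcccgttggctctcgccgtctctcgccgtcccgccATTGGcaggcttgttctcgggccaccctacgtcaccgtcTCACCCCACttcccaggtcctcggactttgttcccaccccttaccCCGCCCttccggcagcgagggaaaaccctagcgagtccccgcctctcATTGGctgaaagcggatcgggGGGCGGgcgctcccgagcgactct
Hsd17b7 (chr1:169969206-169969455, minus strand): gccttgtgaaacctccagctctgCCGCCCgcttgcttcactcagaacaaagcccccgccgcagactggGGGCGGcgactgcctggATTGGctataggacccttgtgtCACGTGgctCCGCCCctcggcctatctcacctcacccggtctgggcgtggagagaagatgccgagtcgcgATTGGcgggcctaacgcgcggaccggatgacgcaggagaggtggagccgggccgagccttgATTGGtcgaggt
Ebp (chrX:8193513-8193762, minus strand): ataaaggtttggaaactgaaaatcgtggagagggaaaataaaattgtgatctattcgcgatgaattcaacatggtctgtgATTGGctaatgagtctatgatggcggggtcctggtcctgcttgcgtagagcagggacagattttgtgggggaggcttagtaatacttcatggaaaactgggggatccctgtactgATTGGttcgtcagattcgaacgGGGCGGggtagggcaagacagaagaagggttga
Lss (chr10:76531355-76531604, plus strand): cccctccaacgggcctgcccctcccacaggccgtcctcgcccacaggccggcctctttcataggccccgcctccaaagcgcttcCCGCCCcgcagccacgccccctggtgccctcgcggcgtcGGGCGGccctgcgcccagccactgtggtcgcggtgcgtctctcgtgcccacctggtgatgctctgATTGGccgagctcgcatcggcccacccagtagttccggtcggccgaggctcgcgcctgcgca
Scap (chr9:110333038-110333287, plus strand): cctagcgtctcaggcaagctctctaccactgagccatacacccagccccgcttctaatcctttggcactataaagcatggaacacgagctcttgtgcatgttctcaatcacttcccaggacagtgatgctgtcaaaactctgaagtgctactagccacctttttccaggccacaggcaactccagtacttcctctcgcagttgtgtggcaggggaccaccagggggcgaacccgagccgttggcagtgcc
Abcg5 and Abcg8 (chr17:84683012-84683120, plus strand): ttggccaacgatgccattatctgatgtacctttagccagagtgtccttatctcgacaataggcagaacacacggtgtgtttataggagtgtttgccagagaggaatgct

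The Hmgcs1 window held the TCACNCCAC element once, CCAAT 3 times and GGGCGG 2 times. It was the only 1 of the 27 genes with that element in a window, against 1.22% of 27025 genes with RefSeq windows. CCAAT stood in a window of 14 of 15 synthesis genes, against 37.5% of all genes, and GGGCGG also in 14 of 15, against 35.4% of all genes. As CCAAT and GGGCGG were in nearly all synthesis genes with a window, they could not separate the enzymes by their difference between tumours. CCAAT was in 8 of 9 synthesis genes that were lower in Myc/NrasG12V and in 6 of 6 that did not pass the test, and GGGCGG in the same numbers. The printed Scap window and the 109 bases between Abcg5 and Abcg8 held none of the 4 motifs. The full window of the Abcg8 start that borders this stretch held CCAAT 2 times. These matches lay 175 and 114 bases before the start, outside the printed stretch. A second RefSeq start of Scap had 1 E-box and 1 GGGCGG in its window. The matches in the printed windows did not overlap each other. A motif match is a description of these letters, not of binding.

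The deposited values were CPM, in which the reads of each gene are divided by the library total and put on the same scale, and the 6 libraries held 17881282 to 27865094 reads. The delivered oncogenes fitted the labels: Nras had 157.7, 155 and 199.8 CPM in Myc/NrasG12V and 60.9, 54.9 and 52.1 CPM in Myc/Akt1, and Akt1 had 55.2, 52.9 and 87.1 CPM against 246, 314 and 280.2 CPM. Groups were compared with limma on log2(CPM + 1), and a gene was called different at a Benjamini-Hochberg adjusted p under 0.05 over 14365 tested genes. All 34 cholesterol genes passed the filter on low values. Scaling mattered. Over all tested genes the log2 difference, Myc/NrasG12V minus Myc/Akt1, had a median of -0.26 on the CPM scale, against 0.00 to 0.05 with TMM, median-of-ratios or upper-quartile factors. Each log2 difference of a single gene on the CPM scale over the 6 libraries carries that shift. Without Myc/NrasG12V replicate 3 the median was -0.32.

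Hepatocyte markers were abundant in both groups, with a summed level of 141193 to 191173 CPM in Myc/NrasG12V and 41136 to 55212 CPM in Myc/Akt1. Of these 6 genes 3 were called higher in Myc/NrasG12V and 0 lower. Without a call, 1 was lower in Myc/NrasG12V without overlap (log2 difference -0.99). Alb alone held 9.07% to 12.4% of the reads in Myc/NrasG12V and 2.99% to 3.85% in Myc/Akt1. The share of mitochondrial transcripts was 2.05%, 2.85% and 3.99% in Myc/NrasG12V and 9.09%, 8.65% and 7.62% in Myc/Akt1, without overlap. Its part in the results was not tested. Markers of other cells also moved with the groups. Macrophage markers summed to 188 to 449.8 CPM in Myc/NrasG12V and 121 to 165 CPM in Myc/Akt1 (4 of 7 higher). Neutrophil markers summed to 21.4 to 179 CPM against 1.64 to 2.04 CPM (4 of 6 tested higher) and erythroid markers to 299.8 to 1867 CPM against 49.0 to 100.5 CPM (6 of 7 higher). Mpo and Camp had no read in Myc/Akt1 replicates 1 and 2, nor Ngp and Slc4a1 in replicates 2 and 3. Stellate cell markers summed to 267 to 303 CPM against 135 to 176 CPM (2 of 5 higher), and cholangiocyte markers to 14.7 to 32.4 CPM against 7.59 to 12.7 CPM (0 of 4 called). Endothelial markers overlapped, at 131 to 209 CPM and 160.0 to 200.1 CPM (2 of 5 higher, 1 lower). The part of these cells in the cholesterol gene differences was not tested, and in bulk tissue fewer cells of a type and less RNA per cell cannot be told apart.

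Synthesis enzymes were lower in Myc/NrasG12V tumours, and Scarb1, Abcg8 and Mylip, genes of HDL cholesterol uptake, sterol efflux and the limiting of lipoprotein uptake, were higher. Of 18 synthesis enzymes, 11 were called lower and 0 higher, where 39.5% of all tested genes were called, 29.5% lower and 10% higher. The 2 groups did not overlap for the same number of enzymes, where 38.0% of all genes were lower without overlap. Their median log2 difference was -1.22. Of the 10 uptake, transfer, efflux and esterification genes, 3 were called higher and 0 lower, with a median of 0.55. Of 6 regulators, Scap was higher and Nr1h3 lower. These counts depended on the scaling. With TMM, median-of-ratios or upper-quartile factors 5 enzymes remained lower (Acat2, Hmgcs1, Fdps, Hsd17b7 and Ebp), where 17.9%, 17.5% and 16.3% of all genes were lower. With edgeR 3 of 18 enzymes were lower (Acat2, Hsd17b7 and Ebp), a share near the 17.5% of all genes. With the 3 factors 7 of the 10 other genes were higher, where 16.2%, 16.5% and 17.7% of all genes were higher. Leaving out any 1 of the Myc/Akt1 libraries left 7, 6 and 6 enzymes lower for replicates 1, 2 and 3, where 20.1%, 21.3% and 27.6% of all genes were lower. The share without replicate 3 is thus close to that of all genes. Of the 10 other genes 1, 1 and 5 were then higher, where 6.72%, 7.02% and 8.99% of all genes were higher.

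**Figure D1:**
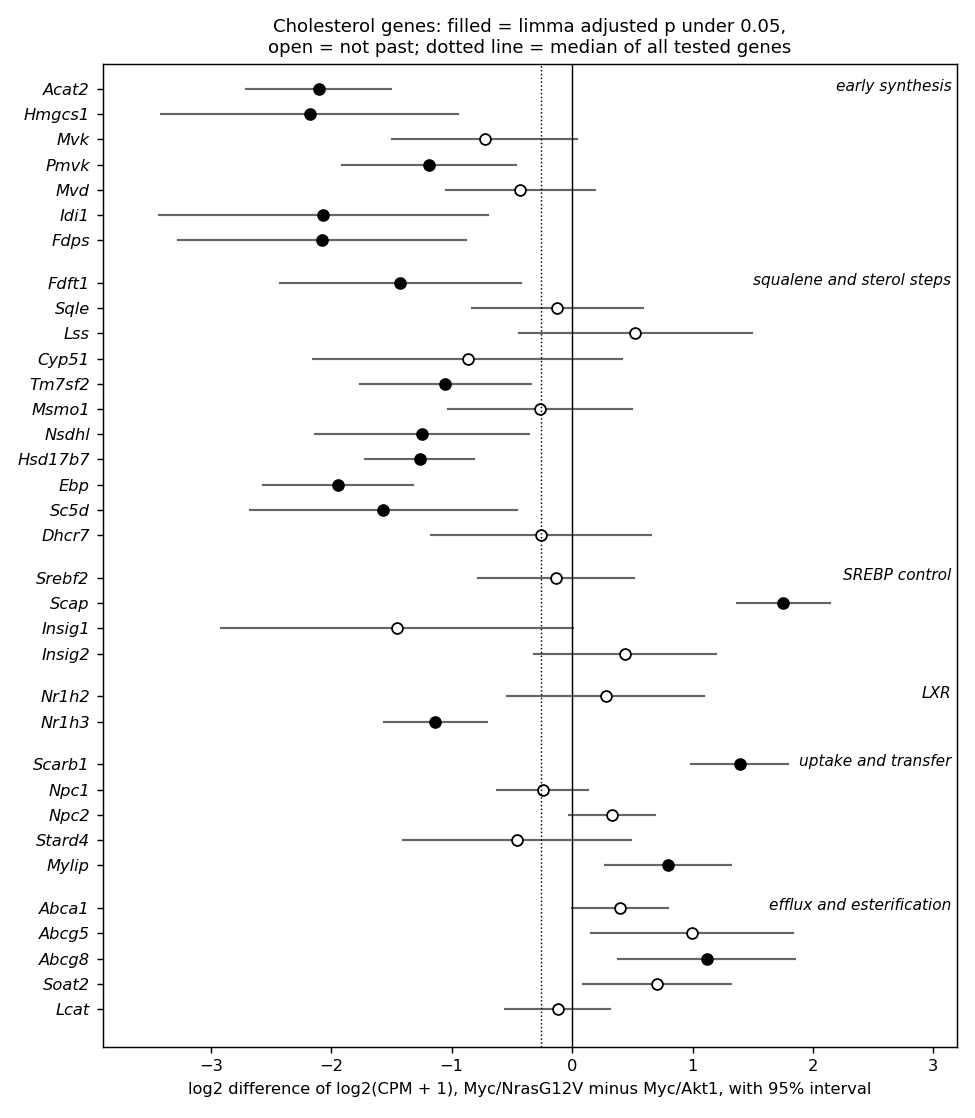
Log2 differences (x axis, difference of log2(CPM + 1), Myc/NrasG12V minus Myc/Akt1) of the 34 genes with their limma 95% intervals, grouped by role; filled points passed the test and the dotted line is the median of all tested genes, -0.26. Filled points of synthesis genes all lie to the left of 0, and those of Scap, Scarb1, Mylip and Abcg8 to the right.

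A comparison within each library does not depend on the scaling factor, apart from the pseudocount. The mean log2(CPM + 1) of the 18 synthesis genes minus that of the 10 uptake, transfer, efflux and esterification genes was -0.98, -0.52 and -1.93 in Myc/NrasG12V replicates 1, 2 and 3. In Myc/Akt1 it was 0.56, 0.53 and 0.33. Thus on this scale the synthesis set stood below the other set in each Myc/NrasG12V library, and above it in each Myc/Akt1 library. These means are not per length, and the differences are read between libraries, not as an order of the sets. The group means were -1.14 ± 0.72 in Myc/NrasG12V and 0.47 ± 0.12 in Myc/Akt1 (SD, n = 3 each), a difference of -1.62, or -1.23 without Myc/NrasG12V replicate 3. The mean of the synthesis set was 5.43 ± 0.78 in Myc/NrasG12V and 6.56 ± 0.10 in Myc/Akt1 (SD, n = 3 each), and that of the other set 6.57 ± 0.09 and 6.08 ± 0.21. The synthesis set therefore varied more between Myc/NrasG12V libraries than between Myc/Akt1 libraries. These averages over chosen genes are descriptions and carry no test.

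**Figure D2:**
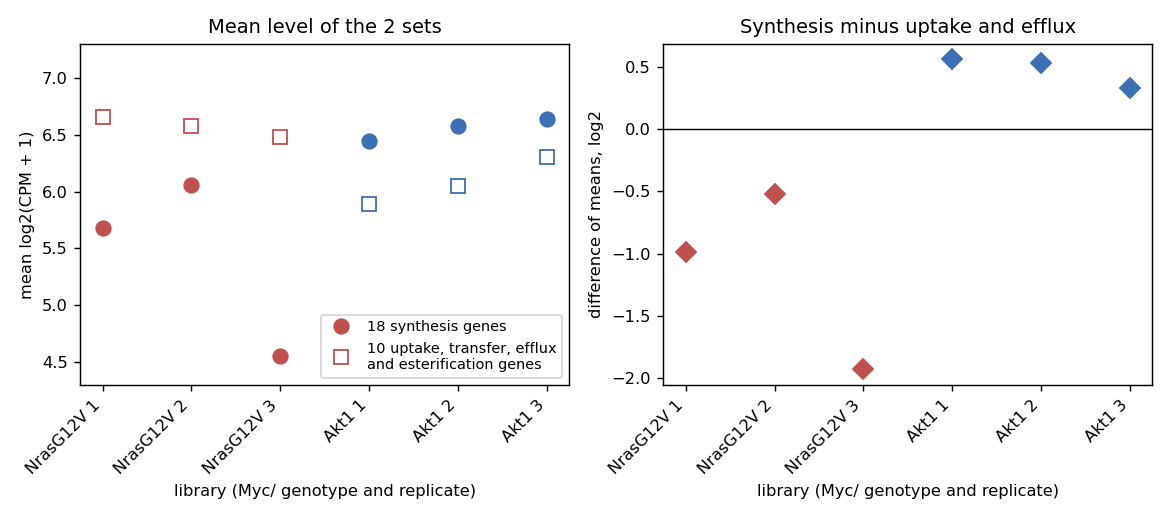
Left, mean log2(CPM + 1) of the 18 synthesis genes (circles) and of the 10 uptake, transfer, efflux and esterification genes (squares) in each library; right, their difference (y axis, log2). The 3 Myc/NrasG12V libraries lie between -1.93 and -0.52 in the right panel and the 3 Myc/Akt1 libraries between 0.33 and 0.56.

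The first steps, from acetyl-CoA to farnesyl diphosphate, had a median log2 difference of -2.07, and the later steps one of -1.05. Without Myc/NrasG12V replicate 3 the medians were -1.32 and -0.81. Of the 7 early genes, 5 were lower in Myc/NrasG12V, where 29.5% of all tested genes were lower, and Mvk and Mvd did not pass. With each scaling factor Acat2, Hmgcs1 and Fdps remained lower, where 17.9%, 17.5% and 16.3% of all genes were lower. Hmgcs1, which makes HMG-CoA (ENSMUSG00000093930, chromosome 13, 119690379 to 119708260, GRCm38), had 159, 292 and 49.4 CPM in Myc/NrasG12V and 732, 622 and 482 CPM in Myc/Akt1. No Myc/NrasG12V library reached the Myc/Akt1 range, and Myc/NrasG12V replicate 3 was the lowest library. The means were 167 ± 121 CPM in Myc/NrasG12V and 612 ± 125 CPM in Myc/Akt1 (SD, n = 3 each), with a log2 difference of -2.18 ± 0.54 (SE, limma adjusted p = 0.0132). Of its windows of 75 bases, 8.93% lie opposite the predicted gene Gm48342. Its level was 3.67-fold higher in Myc/Akt1, or 5.86-fold without Myc/NrasG12V replicate 2 and 2.71-fold without Myc/NrasG12V replicate 3. EdgeR on recovered reads did not call it (adjusted p = 0.0712, with a range of 0.00431 to 0.0712 over the alternatives).

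Acat2, the cytosolic thiolase that joins acetyl-CoA units (ENSMUSG00000023832, chromosome 17, 12942890 to 12960747), had 19.01, 26.5 and 11.9 CPM in Myc/NrasG12V and 85.7, 80.3 and 79.0 CPM in Myc/Akt1. Every Myc/Akt1 library lay far above every Myc/NrasG12V library, with little spread among the Myc/Akt1 values. The log2 difference was -2.11 ± 0.26 (SE, limma adjusted p = 5.84e-04), and the gene was called under each alternative. Of the 75-base windows of its transcripts, 33.9% also occur in the close copy Acat3, so the split of reads between them is uncertain. The sum of Acat2 and Acat3 was 37.1 ± 13.7 CPM in Myc/NrasG12V and 174 ± 3.16 CPM in Myc/Akt1 (SD, n = 3 each), 4.70-fold higher in Myc/Akt1.

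Fdps, which makes farnesyl diphosphate, had 51.6, 103 and 17.2 CPM in Myc/NrasG12V against 177, 183 and 229 CPM in Myc/Akt1. Again the groups were apart, and replicate 3 was the lowest of Myc/NrasG12V. The log2 difference was -2.08 ± 0.52 (SE, limma adjusted p = 0.0139), a level 3.42-fold higher in Myc/Akt1, or 5.71-fold without Myc/NrasG12V replicate 2. EdgeR did not call it (adjusted p = 0.0828, with a range of 0.00311 to 0.0828 over the alternatives). Of its windows, 21.9% also occur in Gm43738, a predicted gene on the same strand.

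Idi1, the isomerase that supplies dimethylallyl diphosphate, was scarce, with 5.63, 7.62 and 0.615 CPM in Myc/NrasG12V and 19.6, 26.7 and 10.95 CPM in Myc/Akt1 (limma adjusted p = 0.0246). The groups were apart, and Myc/NrasG12V replicate 3 was almost without it. Of the Idi1 windows, 23.6% are shared with other genes on either strand, 16.7% with Gm13502. Pmvk, the phosphomevalonate kinase, had 22.3, 28.5 and 11.4 CPM against 36.4, 49.99 and 52.3 CPM (limma adjusted p = 0.0175). The calls of Idi1 and Pmvk ended with each of the 3 scaling factors and with edgeR. That of Idi1 also ended with no filter on low values and without Myc/Akt1 replicate 1 or 2, and that of Pmvk with DESeq2 and without Myc/Akt1 replicate 2 or 3. Mvk, the mevalonate kinase, and Mvd, which makes isopentenyl diphosphate, had overlapping groups. Mvk was at 18.1, 19.7 and 9.28 CPM in Myc/NrasG12V and 17.0, 28.8 and 33.4 CPM in Myc/Akt1, and Mvd at 23.9, 20.7 and 12.8 CPM against 19.9, 31.4 and 25.8 CPM. The 95% intervals of their log2 differences were -1.49 to 0.04 for Mvk and -1.05 to 0.19 for Mvd.

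In the squalene and sterol steps 6 of 11 genes were lower in Myc/NrasG12V and 0 higher. Of all tested genes 29.5% were lower and 10% higher. Sqle, Lss, Cyp51, Msmo1 and Dhcr7 did not pass. With each scaling factor only Hsd17b7 and Ebp of these steps remained lower, a share near the 17.9%, 17.5% and 16.3% of all genes. Ebp, the sterol isomerase (ENSMUSG00000031168, chromosome X, 8185329 to 8193512), had 48.8, 69.8 and 49.8 CPM in Myc/NrasG12V and 187, 165 and 328 CPM in Myc/Akt1. All Myc/Akt1 values were well above all Myc/NrasG12V values, and replicate 3 did not stand out in Myc/NrasG12V. The level was 4.04-fold higher in Myc/Akt1, with a log2 difference of -1.95 ± 0.27 (SE, limma adjusted p = 9.80e-04). Hsd17b7, the sterol ketoreductase (ENSMUSG00000026675, chromosome 1, 169949535 to 169969241), had 40.6, 34.5 and 29.5 CPM in Myc/NrasG12V and 92.5, 95.6 and 68.2 CPM in Myc/Akt1. The groups were apart here too, and the log2 difference was -1.26 ± 0.20 (SE, limma adjusted p = 0.00161). Ebp and Hsd17b7 were called under each alternative.

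Fdft1, squalene synthase and the first enzyme committed to sterols, had 86.7, 91.2 and 24.5 CPM in Myc/NrasG12V and 165, 165 and 145 CPM in Myc/Akt1 (limma adjusted p = 0.0309). Its groups were apart, with replicate 3 far below the other Myc/NrasG12V libraries. Of its windows, 16.6% lie opposite the abundant gene Ctsb, which was at 542 ± 165 CPM in Myc/NrasG12V and 906 ± 89.6 CPM in Myc/Akt1 (SD, n = 3 each) and was itself called lower (limma adjusted p = 0.0457). The strand setting of the counting was not given in the sources used here, so the split between these genes is uncertain. Sc5d, the lathosterol desaturase, had 164, 192 and 44.2 CPM against 322, 284 and 409 CPM (limma adjusted p = 0.0322). Nsdhl, a sterol dehydrogenase, had 40.5, 65.7 and 20.1 CPM against 83.6, 73.2 and 123 CPM (limma adjusted p = 0.0328). Tm7sf2, a sterol reductase, had 12.4, 19.7 and 14.5 CPM against 24.1, 27.5 and 52.7 CPM (limma adjusted p = 0.0263). In all 3 the groups did not overlap, but the values nearest each other were close in Nsdhl and Tm7sf2. Of the Tm7sf2 windows, 8.83% also occur in Vps51, a gene on the same strand. The calls of Fdft1, Sc5d, Nsdhl and Tm7sf2 ended with each scaling factor, with edgeR and with DESeq2. Those of Fdft1, Sc5d and Nsdhl also ended without any 1 of the Myc/Akt1 libraries, that of Nsdhl without Myc/NrasG12V replicate 1, and that of Tm7sf2 without replicate 1 of Myc/NrasG12V or replicate 3 of Myc/Akt1.

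Lss, which closes squalene epoxide into lanosterol, had the only positive estimate among the 18 enzymes, with 169, 160.1 and 48.7 CPM in Myc/NrasG12V and 78.5, 84.2 and 66.7 CPM in Myc/Akt1. Myc/NrasG12V replicates 1 and 2 lay above all Myc/Akt1 libraries, and replicate 3 below them. The log2 difference was 0.52 ± 0.42 (SE, limma adjusted p = 0.358), and without Myc/NrasG12V replicate 3 it was 1.10 and called (limma adjusted p = 0.00131). DESeq2 also called it higher (adjusted p = 0.0446), where 38.6% of all genes were called, 19.2% higher and 19.4% lower, and the range over the alternatives was 0.00131 to 0.741. Sqle, the squalene epoxidase, had 109.7, 163 and 62.6 CPM in Myc/NrasG12V and 121, 122 and 98.8 CPM in Myc/Akt1. Its Myc/NrasG12V values lay on both sides of those of Myc/Akt1. The same held for Dhcr7, the last reductase of the Kandutsch-Russell route, at 145, 198 and 55.4 CPM against 131, 151 and 138 CPM. Msmo1, the methylsterol oxidase, had 103, 144 and 53.5 CPM against 95.2, 104 and 140.2 CPM. Cyp51, the lanosterol demethylase, had 96.0, 148 and 23.5 CPM against 109.3, 124 and 155 CPM. The 95% intervals of the log2 difference were -0.83 to 0.59 for Sqle, -1.17 to 0.66 for Dhcr7, -1.03 to 0.50 for Msmo1 and -2.15 to 0.42 for Cyp51. The estimates of Sqle, Dhcr7 and Msmo1 had the opposite sign with each scaling factor, without a call.

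Ratios between enzymes in 1 library do not depend on the scaling. These pairs were chosen after their values were seen and are descriptions. The CPM ratio of Hmgcs1 to Lss was 0.941, 1.82 and 1.01 in Myc/NrasG12V and 9.33, 7.38 and 7.23 in Myc/Akt1. These CPM ratios are not per length, and are read between libraries, not as an order of the enzymes. The ratio of Fdft1 to Sqle, which act in sequence, was 0.790, 0.558 and 0.391 in Myc/NrasG12V and 1.37, 1.35 and 1.46 in Myc/Akt1. Neither ratio overlapped between the groups.

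**Figure D3:**
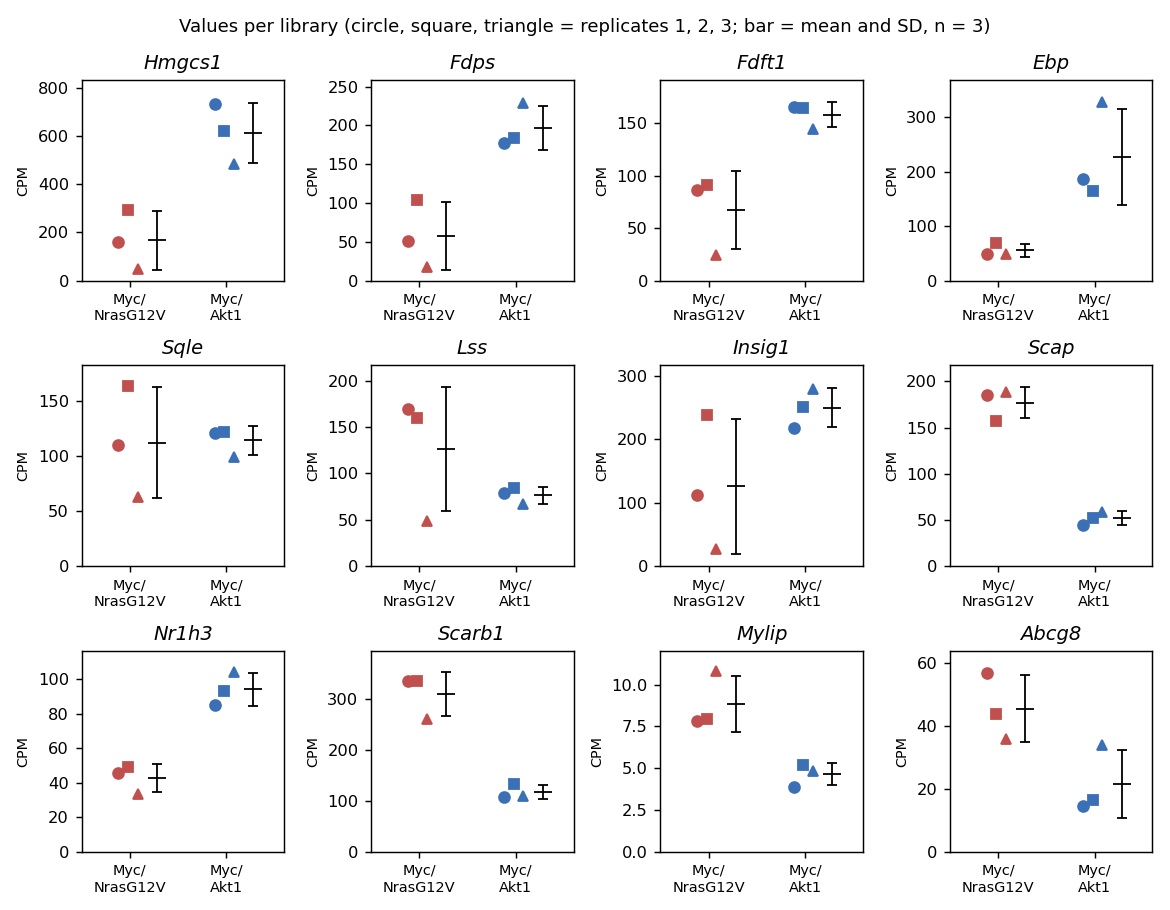
CPM of 12 of the genes in each library (y axis, linear from 0), with Myc/NrasG12V on the left and Myc/Akt1 on the right of each panel; bars are means and SD (n = 3). Myc/NrasG12V replicate 3 (triangle) is the lowest library for Hmgcs1, Fdps, Fdft1, Sqle, Lss, Insig1 and Nr1h3.

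Among the regulators Scap differed most. Scap, the sterol sensor that escorts SREBP2 (ENSMUSG00000032485, chromosome 9, 110333288 to 110384950), had 185, 157 and 188 CPM in Myc/NrasG12V and 44.2, 52.4 and 58.9 CPM in Myc/Akt1. All Myc/NrasG12V libraries, replicate 3 included, lay far above all Myc/Akt1 libraries. It was 3.41-fold higher in Myc/NrasG12V, with a log2 difference of 1.75 ± 0.17 (SE, limma adjusted p = 1.92e-04), and was called under each alternative. Of its windows, 8.26% lie opposite 5830462I19Rik, which was at 2.01 CPM in Myc/NrasG12V and 0.243 CPM in Myc/Akt1. Srebf2, the partner of Scap, had 77.8, 69.0 and 35.96 CPM against 54.4, 73.1 and 64.3 CPM. Its groups overlapped, with a 95% interval of the log2 difference from -0.78 to 0.52, and its estimate changed sign with each scaling factor. The CPM ratio of Scap to Srebf2 was 2.37, 2.28 and 5.24 in Myc/NrasG12V and 0.814, 0.717 and 0.917 in Myc/Akt1.

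Insig1, itself an SREBP target, had 112, 239 and 26.8 CPM in Myc/NrasG12V and 218, 252 and 279 CPM in Myc/Akt1. Myc/NrasG12V spanned a wide range, and its highest library lay above the lowest of Myc/Akt1. The log2 difference was -1.45 ± 0.64 (SE, limma adjusted p = 0.103), and without Myc/NrasG12V replicate 2 the gene was called lower (limma adjusted p = 0.0168, with a range of 0.0168 to 0.479 over the alternatives). Its level was 1.98-fold higher in Myc/Akt1, or 3.59-fold without that library, and the log2 difference was -0.60 without Myc/NrasG12V replicate 3. Insig2 had 204, 297 and 497 CPM against 261, 275 and 167 CPM, with overlapping groups and replicate 3 the highest. DESeq2 called it higher in Myc/NrasG12V (adjusted p = 0.0490), and limma did not (adjusted p = 0.322). The CPM ratio of Insig1 to Insig2 was 0.550, 0.805 and 0.0540 in Myc/NrasG12V and 0.836, 0.917 and 1.67 in Myc/Akt1, without overlap, though the nearest values were close. Per kilobase of annotated exon the mean levels of Insig1 and Insig2 were 40.8 and 95.8 CPM in Myc/NrasG12V and 80.8 and 67.5 CPM in Myc/Akt1. The order of the means in Myc/Akt1 rested on replicate 3, the library with the highest Insig1 to Insig2 ratio.

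Of the LXR genes Nr1h3 was lower in Myc/NrasG12V, and Nr1h2 did not pass. Nr1h3, or LXR alpha, the main form of hepatocytes (ENSMUSG00000002108, chromosome 2, 91184061 to 91202834), had 45.6, 48.9 and 33.6 CPM in Myc/NrasG12V and 84.9, 93.2 and 104 CPM in Myc/Akt1. Every Myc/NrasG12V library lay below every Myc/Akt1 library. The log2 difference was -1.14 ± 0.19 (SE, limma adjusted p = 0.00211), called under each alternative. Nr1h2, the widely expressed LXR beta, had 29.1, 26.0 and 60.6 CPM against 23.8, 23.7 and 44.8 CPM, with overlapping groups and 1 high library in each. Its 95% interval was -0.54 to 1.10. The CPM ratio of Nr1h3 to Nr1h2 was 1.57, 1.88 and 0.555 in Myc/NrasG12V and 3.57, 3.93 and 2.33 in Myc/Akt1.

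Of the uptake and transfer genes, Scarb1 and Mylip were higher in Myc/NrasG12V, and Npc1, Npc2 and Stard4 did not pass. Scarb1, the HDL receptor SR-BI through which hepatocytes take up cholesterol esters (ENSMUSG00000037936, chromosome 5, 125277087 to 125341094), had 335, 336 and 262 CPM in Myc/NrasG12V and 108.8, 134 and 110.4 CPM in Myc/Akt1. Every Myc/NrasG12V library was well above every Myc/Akt1 library. The level was 2.64-fold higher, with a log2 difference of 1.39 ± 0.18 (SE, limma adjusted p = 6.18e-04), and was called under each alternative. The LXR target Mylip was at 7.83, 7.94 and 10.8 CPM in Myc/NrasG12V and 3.90, 5.17 and 4.86 CPM in Myc/Akt1 (limma adjusted p = 0.0243). Its groups were apart at a low level, and its call ended without Myc/Akt1 replicate 1 or 2 and with no filter on low values.

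Npc1 and Npc2 move cholesterol out of lysosomes, and Stard4 carries it between membranes. Npc1 had 126, 99.7 and 107 CPM in Myc/NrasG12V and 117, 144 and 132 CPM in Myc/Akt1, and Stard4 had 113, 153 and 41.0 CPM against 109.7, 121 and 139 CPM. Both overlapped, and Stard4, an SREBP target, was lowest in Myc/NrasG12V replicate 3. Npc2 had 120.4, 128 and 125 CPM against 85.7, 104.8 and 106 CPM. Its groups were apart, but the difference passed only with the 3 scaling factors, edgeR and DESeq2 (adjusted p over the alternatives 0.00365 to 0.380). The 95% intervals of the log2 difference were -0.62 to 0.13 for Npc1, -0.02 to 0.69 for Npc2 and -1.40 to 0.49 for Stard4.

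Of the efflux and esterification genes, Abcg8 was higher in Myc/NrasG12V, and Abcg5, Abca1, Soat2 and Lcat did not pass on the CPM scale. Abcg5 and Abcg8 form 1 pump that sends sterols into bile. Abcg8 had 56.8, 43.8 and 35.7 CPM in Myc/NrasG12V and 14.4, 16.4 and 33.95 CPM in Myc/Akt1 (log2 difference 1.12 ± 0.32, SE, limma adjusted p = 0.0243). Abcg5 had 71.0, 55.3 and 59.7 CPM against 25.8, 18.3 and 58.9 CPM (log2 difference 1.00 ± 0.37, SE, limma adjusted p = 0.0608). In both genes Myc/Akt1 replicate 3 was the highest of its group, just below the lowest Myc/NrasG12V library for Abcg8 and within the Myc/NrasG12V range for Abcg5. Without it Abcg5 was 2.81-fold higher in Myc/NrasG12V, against 1.81-fold with it, and was called. The call of Abcg8 ended when replicate 1 or 2 of Myc/NrasG12V was left out, and likewise for replicate 1 or 2 of Myc/Akt1. The partners kept similar proportions. The CPM ratio of Abcg5 to Abcg8 was 1.25, 1.26 and 1.67 in Myc/NrasG12V and 1.80, 1.12 and 1.73 in Myc/Akt1.

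Abca1, the LXR target that loads cholesterol onto apolipoprotein A-I, had 343, 335 and 293 CPM in Myc/NrasG12V and 263, 268 and 209.9 CPM in Myc/Akt1. The groups were apart by a modest margin, 1.31-fold, and limma did not call the difference (adjusted p = 0.104). Soat2, which esterifies cholesterol in hepatocytes, had 98.9, 72.0 and 142 CPM against 52.8, 54.4 and 79.7 CPM, with overlap (limma adjusted p = 0.0671). Abca1 and Soat2 were both called higher with each scaling factor, with edgeR and with DESeq2, and Abcg5 with each scaling factor and DESeq2. Soat2 was also called without Myc/NrasG12V replicate 2 or without Myc/Akt1 replicate 3. Over the alternatives the adjusted p was 0.00429 to 0.249 for Abca1, 0.00178 to 0.194 for Soat2 and 0.00293 to 0.192 for Abcg5. Lcat, which esterifies cholesterol on HDL in plasma, had 148, 172 and 193 CPM against 149.8, 202 and 209 CPM, with overlapping groups and a 95% interval of the log2 difference from -0.56 to 0.32. Lcat and Npc1 took a positive estimate with each scaling factor, without a call.

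**Figure D4:**
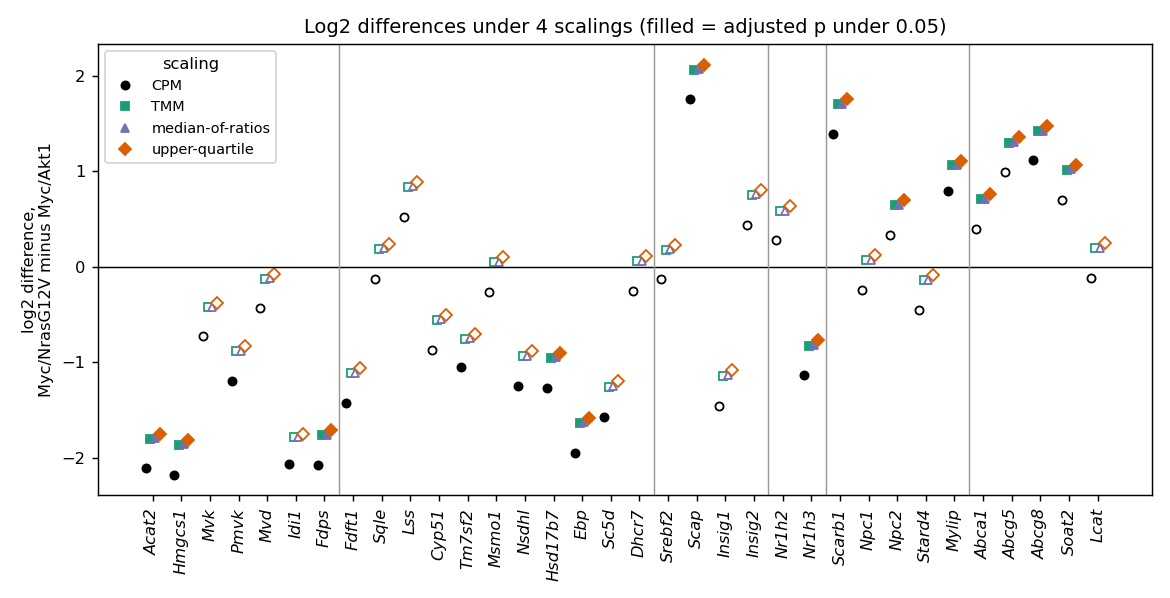
Log2 differences of the 34 genes (y axis, Myc/NrasG12V minus Myc/Akt1) on the CPM scale and with 3 scaling factors; filled symbols passed the test. Acat2, Hmgcs1, Fdps, Hsd17b7, Ebp, Scap, Nr1h3, Scarb1, Mylip and Abcg8 are filled under all 4 scalings.

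Myc/NrasG12V replicate 3 stood apart within its group in the synthesis genes. It was the lowest of the 6 libraries for 16 of 18 synthesis genes, against 22.6% of all tested genes. The exceptions were Tm7sf2 and Ebp. It was also the lowest for Srebf2, Insig1, Nr1h3 and Stard4. For Scap, Insig2, Nr1h2, Mylip, Soat2 and Lcat it was the highest of its group. The same library held the most neutrophil and erythroid transcript, at 179 and 1867 CPM summed over the markers, against 21.4 to 54.4 and 299.8 to 1070 CPM in the other Myc/NrasG12V libraries. Its hepatocyte, macrophage, stellate and cholangiocyte marker sums were the lowest of its group, at 141193, 188, 267 and 14.7 CPM. Its endothelial sum, 183 CPM, lay between those of the other Myc/NrasG12V libraries. Its share of mitochondrial transcripts, 3.99%, was the highest of its group. Whether these differences and the low synthesis genes go together for a common reason was not tested. Without this library 11 enzymes were lower and 1, Lss, was higher, where 43.8% of all genes were called, 33.4% lower and 10.5% higher.

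**Figure D5:**
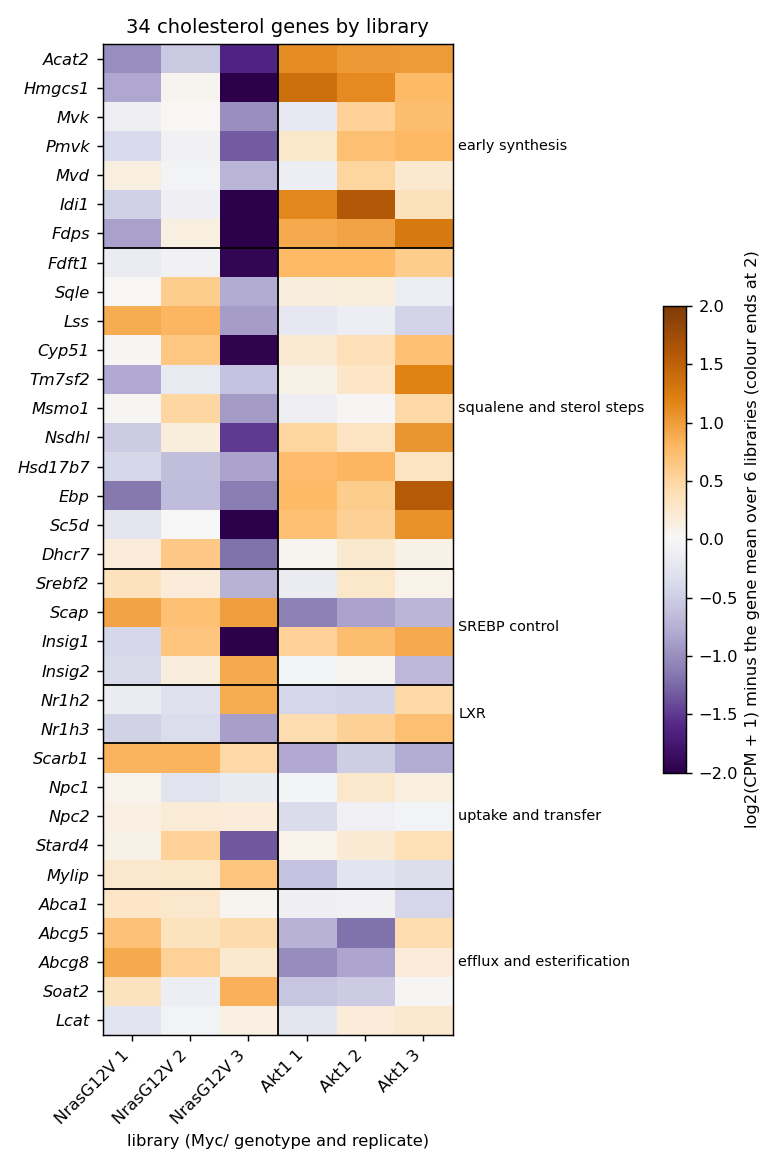
Level of each of the 34 genes (rows, grouped by role) in each library (columns), as log2(CPM + 1) minus the mean of the gene over the 6 libraries; orange is above and purple below that mean. Myc/NrasG12V replicate 3 has the lowest value of 16 of the 18 synthesis genes.

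Other genes of the pathway, from further lists, are given as counts on the CPM scale, to be set beside the 29.5% of all genes that were lower and the 10% that were higher. Of 6 further synthesis genes 4 were lower in Myc/NrasG12V and 0 higher, and with each scaling factor 1, Acat1, was lower, a share near that of all genes. Acat1, the mitochondrial thiolase, which also serves ketone bodies, was 6.40-fold higher in Myc/Akt1 (limma adjusted p = 0.00120). The sterol scaffold gene Erg28, listed under its older name 0610007P14Rik, and the sterol reductase Lbr were 1.80-fold and 1.63-fold higher in Myc/Akt1 (limma adjusted p = 0.00896 and 0.0135).

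Of 9 further genes of SREBP control and sterol-driven protein degradation 5 were lower and 0 higher, but with each scaling factor 0 were called. Erlin2, which serves sterol-driven degradation in the endoplasmic reticulum, and Rnf139, an E3 ligase there, had levels 1.65- and 1.45-fold higher in Myc/Akt1 (limma adjusted p = 0.0158 and 0.0258).

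Of 9 further transfer and storage genes 5 were lower and 2 higher in Myc/NrasG12V, and with each scaling factor 4 were lower. Lipa, the lysosomal acid lipase that frees cholesterol from its esters, was 4.42-fold higher in Myc/Akt1 (limma adjusted p = 0.00112). Tmem97, an endoplasmic reticulum protein that binds NPC1, and Osbp, the oxysterol-binding protein, were 2.04- and 1.94-fold higher there. Of 8 further efflux and oxysterol genes 3 were lower and 1 higher, shares near those of all genes. Cyp7b1, the oxysterol 7-alpha-hydroxylase, was at 3.29, 2.89 and 0.727 CPM in Myc/NrasG12V and 17.7, 22.8 and 43.9 CPM in Myc/Akt1 (limma adjusted p = 8.67e-04). Pltp, the phospholipid transfer protein and an LXR target, was 4.46-fold higher in Myc/Akt1 (limma adjusted p = 0.00122). Ch25h, which makes 25-hydroxycholesterol, was at 3.199, 2.98 and 2.52 CPM in Myc/NrasG12V and 0.976, 0.251 and 0.591 CPM in Myc/Akt1 (limma adjusted p = 0.00247). Both hydroxylase genes had groups well apart, in opposite directions.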

How the data were processed

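Poly(A) RNA of 6 liver tumour samples was read from one end in strand-preserving libraries, per the labels' protocols. The authors deposited CPM: each column sums to a common total, whatever its header says. GRCm38, edgeR 3.22.5, Subread 1.6.3 and STAR 2.6.1c are listed in the submitters' processing notes. Which annotation release and which strand option were used is not given in the sources used here. All values were whole multiples of 1 read within 0.01 read (100% of values), so whole reads were recovered. A gene with no read may have had up to 0.108 to 0.168 CPM (3 reads, depending on the library), which covers counting error only.

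Genes were filtered with filterByExpr (0.457 CPM in 3 libraries, 15 reads in total) and compared with limma 3.58.1 in R 4.3.3 (trend, two-sided) on log2(CPM + 1). A count test as the main test had been planned only for raw counts. EdgeR 4.0.16 on recovered reads called 4893 genes, 2381 higher and 2512 lower in Myc/NrasG12V, against 1437 and 4240 with limma on CPM; DESeq2 1.42.0 was also run. A fold compares the mean CPM of the groups. The log2 difference is the limma coefficient, and its pseudocount of 1 understates the change of low genes. An exact permutation test of single genes cannot go below p = 0.1 with 3 libraries a group.

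The genes and lists were chosen with earlier results of these data known. Named beside the 34 genes are the 3 genes of lowest adjusted p called in each further list, except some genes, and a further uptake list, that are not reported here. Coordinates and exon lengths are from GENCODE M21 on GRCm38, which holds 37693 of the files' identifiers (96.2%), and 75-base windows shared between genes were counted in its transcripts, on either strand. Promoters are from RefSeq on GRCm38.p6; genes with several starts counted as holding a motif if any window did.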

Additional observations from a re-analysis of the deposited data

How the results depend on the processing

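The counts of called genes depended most on scaling and on leaving out Myc/Akt1 libraries. Under the scaling factors (TMM, then median-of-ratios, then upper-quartile), edgeR and DESeq2, 2331, 2366, 2544, 2381 and 2752 genes were higher in Myc/NrasG12V and 2565, 2515, 2343, 2512 and 2791 lower; synthesis genes lower in Myc/NrasG12V were 5, 5, 5, 3 and 6, and uptake, transfer, efflux and esterification genes higher were 7, 7, 7, 6 and 7. DESeq2 called 1 synthesis gene and 2 regulators higher, where 19.2% of all genes were higher and 19.4% lower. With edgeR 16.6% of all genes were higher and 17.5% lower. With no filter on low values 7 synthesis genes were lower, where 16.7% of 23732 genes were lower. Leaving out each library in turn gave 966 to 1502 genes higher (6.72% to 10.5%) and 2890 to 4796 lower (20.1% to 33.4%). Then 6 to 11 synthesis genes were lower and 0 to 1 higher, and 1 to 2 regulators were lower. Of the uptake, transfer, efflux and esterification genes 1 to 5 were higher. Without Myc/NrasG12V replicate 1, 9 synthesis genes were lower, where 22.3% of all genes were lower. Without Myc/NrasG12V replicate 2, 11 were lower, where 23.0% of all genes were lower. The difference in synthesis minus uptake and efflux kept its sign in the alternatives run, from -1.93 to -1.23. Of the 34 single genes 23 to 34 kept their side of the threshold under each alternative, and no called gene was called in the opposite direction. The causes were not tested. Replicate numbers are shared between the groups. The deviations of same-numbered libraries from their group means correlated at -0.08, 0.11 and 0.08. For libraries with different numbers the correlations were -0.14 to 0.09. With 3 libraries a group these values cannot show whether same-numbered libraries were handled together. With the replicate block 10.2% of all genes were higher and 28.3% lower. There 5 uptake, transfer, efflux and esterification genes were higher and 10 synthesis genes lower. Abcg5 and Soat2 gained a call and Nsdhl lost it.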
